A study of Mus musculus with 10 samples.

Results

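Windows whose methylation varied between mice of the same group were examined in lung DNA. They were selected on that variation: among windows of 1000 bp placed every 500 bp along chromosomes 1 to 19, with at least 100 CpG calls in each of the 10 mice, a window was kept where the pooled within-group standard deviation (SD) of its methylation reached 10 percentage points. The rule kept 192 of 327076 such windows (0.0587%), out of 446336 windows of the table. Windows that overlap or abut were merged, which gave 160 regions. Because the within-group SD chose the windows, it is given here as a description and was not tested.

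The study asked how ovalbumin-induced asthma and an extract of the herb Descurainia sophia (DSE) change the lung of the mouse. Its Methyl-seq libraries, in which probes capture chosen genomic regions before bisulfite treatment tells methylated from unmethylated cytosines, came from whole lung of female BALB/c mice, obtained at 8 weeks of age. The 3 Saline mice received saline. The 3 OVA mice were sensitised to ovalbumin with alum by intraperitoneal injection and then challenged with it through the nose. The 4 Herb mice had the same ovalbumin treatment and were given the herb by mouth in the days around the challenge. The labels name this group Herb without naming the extract, and the study describes no herb other than DSE. BALB/c is an inbred strain, whole lung holds many cell types, and each library is 1 mouse.

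In mammals the methyl group at most CpG sites is copied to the new strand by Dnmt1 when DNA is replicated, so the state of a site is passed on through cell division. At some loci of inbred mice the state is set at random early in development and then kept in many tissues. Such loci are known as metastable epialleles, and many lie beside retrotransposons of the IAP class. In a mixed tissue the methylation of a window is also an average over cell types, and over both alleles where a gene is imprinted.

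Total calls per mouse lay between 306656737 and 410836272, and the median over the windows of the rule was 530 to 755 calls per mouse. In the variable windows the median was lower, 169.5 to 249 calls per mouse. The libraries of Saline replicates 1 and 2 and OVA replicate 3 stood apart from the other 7 in their calls. After scaling each library to the same total, a gap of at least 2-fold separated some mice from the rest in 469 of the 327076 windows, and in 242 of these the mice on one side were exactly these 3. The 242 windows lay on all 19 chromosomes analysed, with fewer calls in the 3 mice at 148 windows and more at 94. The labels name no batch that would set these libraries apart. The results that rest on them are given with and without them, apart from the comparison of Herb with Saline mice.

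Stretches of reference sequence are shown for regions that the results below turn on. The Ahi1 region had the most calls in the mouse with the fewest, in the Srrm4 and 2610203C22Rik regions all calls could be placed in the 500 bp shared by overlapping windows, the Efna2 window set 2 mice apart from 8, and the Arhgap10 and Gtf3a windows separated the 3 libraries named above. Each is the stretch of 200 bases with the most CpGs in the window that overlaps no annotated exon. They are read 5′ to 3′ on the plus strand of GRCm38 (RefSeq), with CpG sites in capitals.
Ahi1, chr10:20954271-20954470: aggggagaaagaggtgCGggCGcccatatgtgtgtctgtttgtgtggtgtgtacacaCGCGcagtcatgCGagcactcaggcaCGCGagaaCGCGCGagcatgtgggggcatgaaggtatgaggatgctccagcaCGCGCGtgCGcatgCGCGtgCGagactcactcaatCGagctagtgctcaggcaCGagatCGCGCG
Srrm4, chr5:116569594-116569793: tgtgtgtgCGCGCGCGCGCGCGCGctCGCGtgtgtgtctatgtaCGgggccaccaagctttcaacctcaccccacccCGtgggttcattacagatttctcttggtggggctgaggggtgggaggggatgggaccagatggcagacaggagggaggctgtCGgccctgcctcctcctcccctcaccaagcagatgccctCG
2610203C22Rik, chr1:9649281-9649480: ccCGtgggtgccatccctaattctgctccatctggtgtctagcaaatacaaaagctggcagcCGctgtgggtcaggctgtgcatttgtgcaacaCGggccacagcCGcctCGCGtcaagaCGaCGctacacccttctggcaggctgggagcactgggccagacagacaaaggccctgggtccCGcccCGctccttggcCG
Efna2, chr10:80179281-80179480: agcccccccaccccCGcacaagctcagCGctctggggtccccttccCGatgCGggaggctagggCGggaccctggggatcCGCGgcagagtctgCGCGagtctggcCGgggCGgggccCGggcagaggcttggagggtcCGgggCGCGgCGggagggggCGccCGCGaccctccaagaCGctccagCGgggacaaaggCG
Arhgap10, chr8:77448001-77448200: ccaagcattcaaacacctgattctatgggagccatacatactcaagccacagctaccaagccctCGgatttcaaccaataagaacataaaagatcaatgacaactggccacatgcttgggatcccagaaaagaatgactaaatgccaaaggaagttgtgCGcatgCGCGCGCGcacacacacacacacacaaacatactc
Gtf3a, chr5:146942551-146942750: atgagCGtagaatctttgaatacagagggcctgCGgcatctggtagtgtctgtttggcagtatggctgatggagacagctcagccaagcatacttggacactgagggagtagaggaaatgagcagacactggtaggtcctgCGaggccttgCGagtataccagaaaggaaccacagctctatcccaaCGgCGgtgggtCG

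Runs of alternating C and G appear in the Ahi1, Srrm4 and Arhgap10 stretches. The letters CGCGCG, which read the same on both strands, were present in 22 of the 192 variable windows (11.5%). They were present in 7.49% of all windows of the rule, in 2.27% of those with a mean methylation of 20 to 80%, and in 1.17% of the latter with under 200 calls in a mouse. Runs of CACACACACA on either strand were found in 25.5% of the variable windows and in 17.1% of the windows with a mean of 20 to 80%. These motifs were chosen after the sequences had been seen, and the counts are a description.

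The within-group SD of the variable windows ranged from 10.01 to 19.5 points with a median of 10.8, whereas the median over all windows of the rule was 2.50 points. Just inside the threshold were a window of Gm5796 on chromosome 14 with 10.01 points, a window of Igf2bp1 with 10.02 points and a window of Npsr1 with 10.02 points. Among those just outside it was a window of Gm11715 with 9.99 points. The variable windows were therefore mostly close to the threshold, with 43 at 12 points or more and 14 at 15 points or more. The Saline mice had an SD of 10 points or more in 104 of the 192 windows, the OVA mice in 104 and the Herb mice in 96. All 3 groups passed it in 11 windows, 2 groups in 90 and 1 group in 91.

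The Greb1l window at chr18:10548001-10549000, in an intron of a gene known for its role in kidney development, had the largest SD of all windows, 19.5 points. Its levels, in replicate order, were 14.6, 12.9 and 56.1% in Saline mice, 61.7, 61.6 and 15% in OVA mice, and 47.4, 52.7, 50.7 and 49.1% in Herb mice. The 3 mice whose libraries stood apart in calls were below 16% and the other 7 above 47%, and with a term for these mice the SD of the Greb1l window was 1.95 points. Lhcgr encodes the receptor for luteinising hormone, and its promoter window at chr17:88791001-88792000 had an SD of 18.6 points. Lhcgr levels were 77.1, 71.4 and 55.3% in Saline mice, 53.5, 74.3 and 71.7% in OVA mice, and 56.5, 28.6, 75 and 86.4% in Herb mice. The Herb mice alone spanned 28.6 to 86.4%, and all Saline and OVA mice lay inside that span.

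Srrm4, a regulator of splicing in neurons, held a variable region in an intron at chr5:116569001-116570500, where overlapping windows had identical calls in every mouse, so that all calls lay between 116569501 and 116570000. Srrm4 levels were 34.9, 12.5 and 43.0% in Saline mice, 4.7, 43.4 and 27.4% in OVA mice, and 16.6, 8.1, 15.3 and 46.6% in Herb mice. Each group thus had at least 1 mouse under 17% and at least 1 above 42%. The region 17908 bp upstream of 2610203C22Rik on chromosome 1 was narrowed in the same way to 9649001 to 9649500. Its levels were 73.6, 50.9 and 48.0% in Saline mice, 73.3, 35.5 and 79.3% in OVA mice, and 59.8, 74.3, 69.4 and 85.8% in Herb mice. OVA replicate 2 was the lowest mouse here, and the ranges of the 3 groups overlapped.

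Ahi1 encodes a protein of the ciliary transition zone. Its region at chr10:20953501-20955500 held 3 variable windows, more than any other region. It runs into the gene from the edge of the promoter (1000 bp on both sides of the start site). The midpoint of its first window lies 1453 bp past the start site. Its window at chr10:20953501-20954500 had 1112 to 1911 calls per mouse, the highest minimum of all variable windows, while windows of 4930447K03Rik, Greb1l and Oprm1 had higher medians over the mice. That window had 34.0, 51.3 and 39.6% methylation in Saline mice, 43.0, 23.6 and 53.8% in OVA mice, and 64.7, 24.3, 46.9 and 49.2% in Herb mice. The next window, at chr10:20954001-20955000 with 888 calls or more, had 27.3, 47.7 and 34.4% in Saline mice, 42.9, 19.2 and 52.0% in OVA mice, and 64.6, 15.9, 36.3 and 44.8% in Herb mice. Herb replicate 1 was the highest and OVA replicate 2 and Herb replicate 2 were the lowest mice in both. The third window, at chr10:20954501-20955500, shares no base with the first and had 22.3 and 11.2% in these low mice against 37.4% or more in the other 8. Scaled calls were alike over the mice in this region, at 1008 to 1368 in the middle window, and of the 31-base stretches sampled every 25 bases, 0, 7.69 and 17.9% in the 3 windows had another copy in the genome.

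Tfr2, transferrin receptor 2, an iron sensor known from the liver, held an exonic window with an SD of 16.1 points. Tfr2 levels were 32.5, 17.8 and 24.0% in Saline mice, 32.4, 46.3 and 68.0% in OVA mice, and 35.7, 60.6, 67.6 and 28.9% in Herb mice. The Saline mice lay within 17.8 to 32.5%, and only the lowest OVA and the lowest Herb mouse fell below 32.5%. The promoter windows shared by Scand1 and Cnbd2 on chromosome 2 had SDs of 15.6 and 12.5 points. Scand1 levels in the first were 30.7, 38.0 and 17.8% in Saline mice, 25.7, 16.7 and 14.2% in OVA mice, and 27.4, 52.8, 78.4 and 40.1% in Herb mice. Herb replicate 3 was the highest mouse, and in the second window it stood alone at 52.9% against 5.8 to 18.7% in the other 9. Herb replicate 3 also had the fewest scaled calls there, 214 against 588 to 1040, and without it the SD of the first window was 10.04 points. The part of the calls was not tested.

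Efna2 encodes an ephrin, a membrane-bound ligand of Eph receptors, and its promoter window at chr10:80178501-80179500 had an SD of 15.1 points. Efna2 levels were 96.3, 58.8 and 95.2% in Saline mice, 63.3, 92.7 and 97.2% in OVA mice, and 96.6, 92.6, 96.7 and 95.7% in Herb mice. Saline replicate 2 and OVA replicate 1 were low, while the other 8 mice lay within 92.6 to 97.2%. The low mice had 521 and 567 scaled calls and the other 8 had 274 to 356, and the part of this difference in calls was not tested. Vmn2r29, a vomeronasal receptor gene of a large family, had a promoter window with 73.4, 21.0 and 61.5% in Saline mice, 33.3, 47.4 and 35.0% in OVA mice, and 36.6, 45.04, 39.1 and 40.8% in Herb mice. Its spread lay in the Saline mice, and without Saline replicate 2 its SD was 6.14 points. Of its sampled 31-base stretches, 61.5% have another copy in the genome, and whether calls of near-identical genes are mixed in it was not tested.

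**Figure D1:**
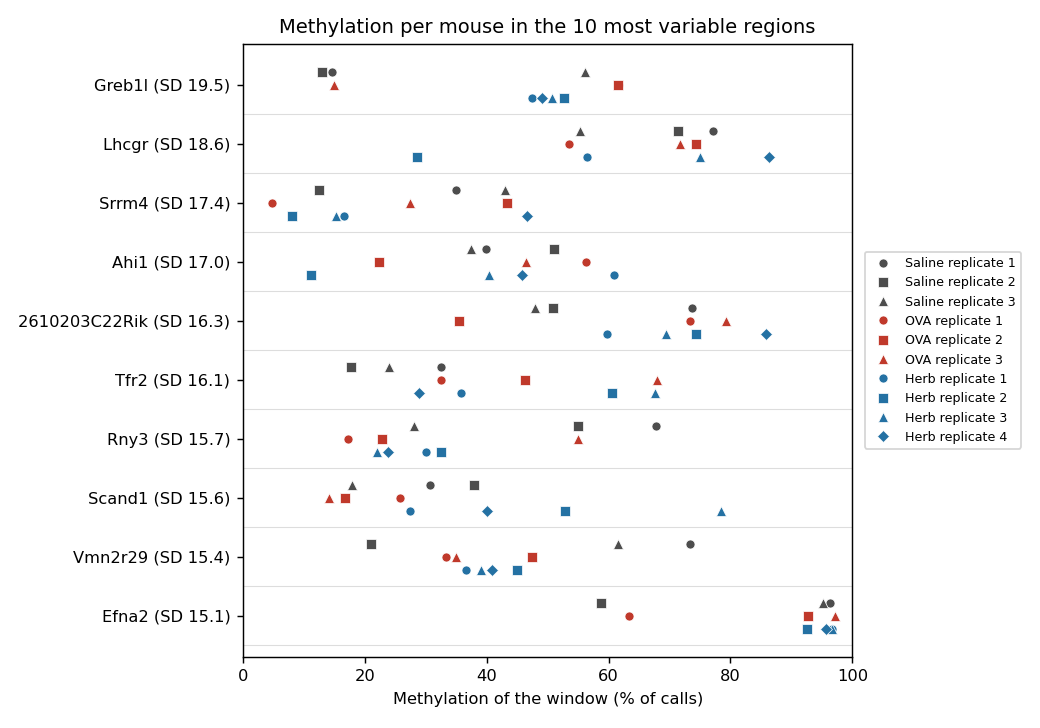
Methylation of the most variable window of each of the 10 regions with the largest within-group SD (horizontal axis, percent of calls), 1 point per mouse, with colours for groups and symbols for replicate numbers. Greb1l and Rny3 separate the same 3 mice from the rest, Efna2 has 2 mice at 58.8 and 63.3% with the other 8 above 92%, and the groups overlap in all 10 regions except the Herb and OVA mice at Scand1.

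The windows were not spread evenly over methylation levels or depth. A mean methylation of 20 to 80% was found in 189 of the 192, and their share was highest between 40 and 50%, where 45 windows made up 0.168% of the windows of that level. No window with a mean below 10% or above 90% was variable by the rule. The mouse with the fewest calls had a median of 128 calls in the variable windows and 483 over all windows of the rule. Windows with 100 to 149 calls in that mouse held 135 of the 192 (0.397% of such windows). Of 81082 windows with 1000 calls or more 1 was variable, the first Ahi1 window. Only 5 windows had at least 500 calls in every mouse. Beside the first Ahi1 window these were the next Ahi1 window, the Airn and Bcl3 promoters and an exon of Basp1.

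Counting error alone widens the spread where calls are few. With every call taken as independent, the counting SD had a median of 3.32 points in the variable windows, and the observed SD was 2.33 to 13.6 times the counting SD. Calls of neighbouring CpGs on 1 molecule are not independent, and the mean number of calls per reference CpG had a median of 13.1 in the variable windows and 46.4 in windows with a mean of 20 to 80%. If the CpGs of a molecule always shared 1 state and all CpGs of the window were covered equally, the counting SD would have had a median of 13.04 points. In 61 of the 192 variable windows (31.8%), in 51 regions, the observed SD exceeded this value. The SD that chose the windows enters this count, so it is a description and no measure of spread beyond counting. For the Ahi1 windows the ratio of observed to counting SD on this scale was 1.58 to 2.19, for Srrm4 up to 1.37, for Efna2 1.68 and for Airn 1.65, while for Tfr2 it was 0.977. Both counting values cover counting error only, since the reads carry no molecular identifiers.

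**Figure D2:**
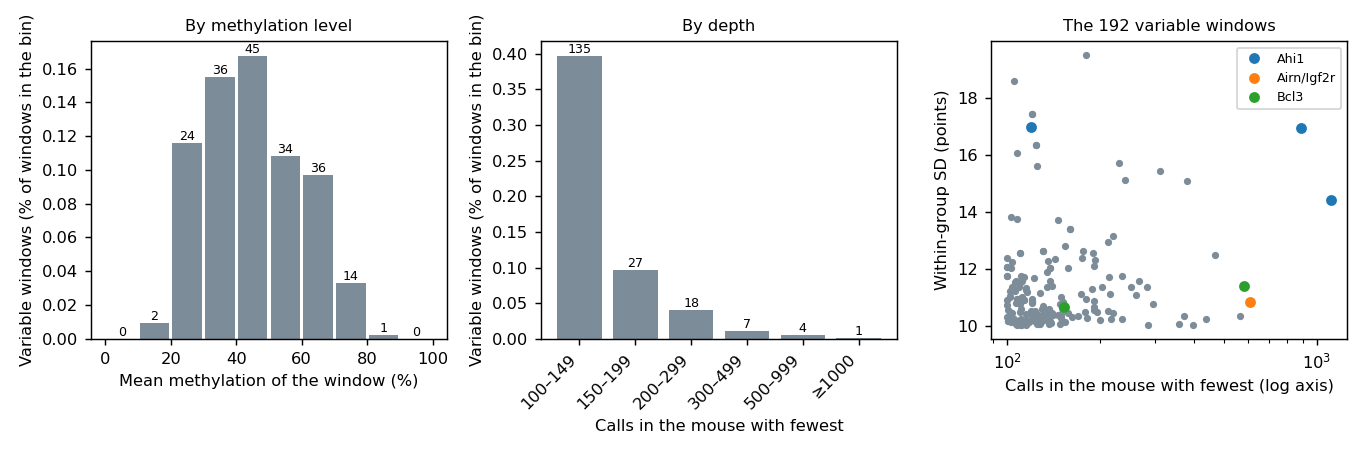
Left and middle, percent of windows that were variable by the rule in bins of mean methylation and of calls in the mouse with the fewest calls, with the number of variable windows above each bar. Right, within-group SD in points against those calls on a log axis for the 192 variable windows. The bars fall from 135 windows at 100 to 149 calls to 1 at 1000 calls or more, and of the 3 Ahi1 windows 2 stand at the upper right and 1, with 119 calls, at the upper left.

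To see whether the same windows varied in mice that did not choose them, windows were chosen by the pooled SD of the 6 Saline and OVA mice alone and read in the 4 Herb mice. Of 618 windows chosen at 10 points or more, 39 (6.31%) had a Herb SD of 10 points or more, where 0.206% of all windows of the rule had one. The median Herb SD of the chosen windows was 5.05 points, against 2.18 over all windows. Within bins of level and calls the chosen windows had the higher share in all but 1 of the 6 bins compared. The bins are coarse in calls and do not match calls per CpG, and the part of depth was not tested. With 200 calls or more in every mouse, only 3, 3 and 0 chosen windows passed in the bins from low to high level. With 40 to 60% methylation and under 200 calls in a mouse, 14 of 236 chosen windows (5.93%) passed and 1.77% of all windows in the bin did. With 200 calls or more at the same level, 3 of 73 (4.11%) passed and 0.192% of all did. At 60 to 80% methylation and 200 calls or more, 0 of 18 chosen windows passed. Overlapping windows share calls, so these counts were not tested.

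**Figure D3:**
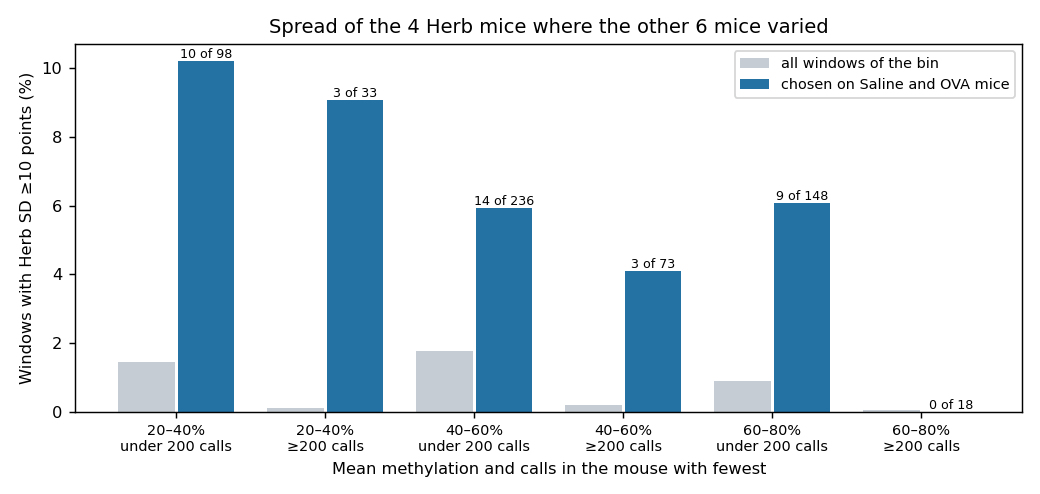
Percent of windows with an SD of 10 points or more among the 4 Herb mice, in bins of mean methylation and of calls in the mouse with the fewest calls. Grey bars stand for all windows of the bin and blue bars for windows chosen on the Saline and OVA mice, with counts. The blue bar is higher in every bin but the last, where 0 of 18 chosen windows passed.

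The gene features of the variable windows differed with what they were compared with. Promoters, taken as 1000 bp on both sides of a RefSeq start site, held 39 of the 192 windows (20.3%), exons 32 (16.7%), introns 65 (33.9%) and intergenic sequence 56 (29.2%). Over all windows of the rule the promoter share was 23.0%, and over those with a mean of 20 to 80% it was 12.2%. At the same range of levels, 0.163% of promoter windows and 0.0796% of intergenic windows were variable. The variable windows had a median of 16 CpGs against 13 in windows of the same levels, and 19.2% of their bases were soft-masked repeats against 15.2% (medians). In 12 variable windows (6.25%) at least 50% of the sampled 31-base stretches had another copy in the genome, compared with 2.43% of the windows with a mean of 20 to 80%. These 12 include the Greb1l, Rny3, Vmn2r29 and 2610005L07Rik windows.

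A promoter was touched by variable windows in 35 genes, and in 4 of these by 2 windows: Lhcgr, Cnbd2 with Scand1, Cryab and Bcl3. Cryab, a small heat shock protein, shares its promoter with Hspb2. Its levels in the 500 bp between 50751001 and 50751500 of chromosome 9 were 40.0, 39.4 and 58.0% in Saline mice, 46.2, 58.4 and 50.6% in OVA mice, and 47.5, 75, 47.6 and 36.6% in Herb mice. Herb replicate 2 was the highest mouse. Bcl3, a nuclear partner of NF-kappaB proteins, had 60.9, 62.6 and 30.7% in Saline mice, 56.6, 51.4 and 59.8% in OVA mice, and 54.8, 36.4, 52.7 and 42.0% in Herb mice at chr7:19822001-19823000, with 580 calls or more per mouse. Saline replicate 3 was the lowest mouse there.

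Along the genome the regions were scattered. Of the 160 regions, 129 consisted of 1 window, 30 of 2 and 1 of 3. In 13 of the 31 overlapping pairs the calls were identical in all mice. The nearest other region on the chromosome was a median of 4918500 bp away and never closer than 16500 bp, and 9 regions had another within 100 kb. The regions fell into 151 of 2396 bins of 1 Mb, of which 143 held 1 region and none more than 3. Among the 121 variable windows with an abutting window that passed the depth rule, 4 (3.31%) had a variable one beside them, which is 0.0690% over all windows of the rule. The 4 are 2 pairs seen from both sides. Abutting windows, which share no base, had a median SD of 2.90 points, and the deviations of the 10 mice from their group means in a variable window and its neighbour had a median r of 0.25, against 0.12 for windows with a mean of 20 to 80%. The points of each r share the libraries, and no test was made.

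Chromosome 17 had the highest share of variable windows, 17 of 15453 (0.110%), followed by chromosome 15 with 15 of 14870 (0.101%). Chromosome 16 had 0 of 10401. Among bins of 1 Mb with at least 20 windows of the rule, the highest shares rested on 1 region each: the bin of Oprm1 on chromosome 10 (1 of 21 windows), of 4930519L02Rik on chromosome 3 (1 of 22), of 9130008F23Rik on chromosome 17 (2 of 51), of Aasdhppt on chromosome 9 (1 of 26) and of Pex2 on chromosome 3 (1 of 28). The 9130008F23Rik region, narrowed to 40875501 to 40876000 of chromosome 17, had 36.4, 0 and 24.2% in Saline mice, 12.3, 25.4 and 36.9% in OVA mice, and 26.4, 21.6, 23.2 and 20.4% in Herb mice. Saline replicate 2 had no methylated call there.

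**Figure D4:**
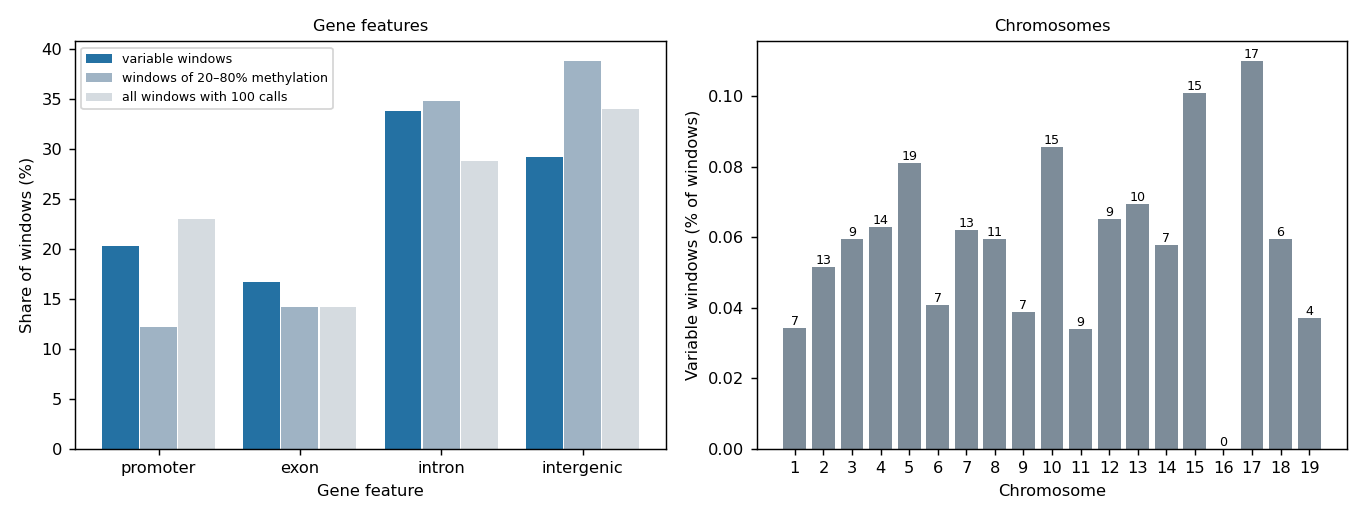
Left, percent of windows in promoters, exons, introns and intergenic sequence for the variable windows, the windows with a mean methylation of 20 to 80%, and all windows of the rule. Right, percent of windows that were variable on each of the 19 chromosomes, with the number of variable windows above each bar. Promoters hold 20.3% of the variable windows and 12.2% of those with a mean of 20 to 80%, and chromosome 16 has no variable window.

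In bulk lung, a change in the share of a cell type and a change in methylation within cells cannot be told apart. No mouse set the variable windows alone. OVA replicate 1 was the mouse farthest from its group mean in 29 of the 192 windows, the highest count, and OVA replicate 2 in 9, the lowest. OVA replicate 1 lay below its group mean in 22 of its 29 windows. The first principal component of the deviations held 22.3% of their variance, the second 18.9% and the third 14.9%, of 7 components in all. In 137 of the 192 windows (71.4%) the mice could be split by a gap of at least 10 points between neighbouring values. The SD rule itself favours such gaps, and 5355 of all windows of the rule (1.64%) had one. A lone mouse stood on one side in 77 of the 137, most often Saline replicate 2 with 19, and 2 mice in 25. Over all windows of the rule it was a lone mouse in 3112 of the 5355, again most often Saline replicate 2 with 1016.

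Sets of 3 mice stood apart in 23 of the 137 variable windows with such a gap. In 11 of the 23 they were the same 3: Saline replicates 1 and 2 and OVA replicate 3, the libraries that stood apart in calls. The next set of 3 occurred in 2 windows. The 11 windows form 8 regions on 8 chromosomes, with the 3 mice higher in 9 windows and lower in the 2 Greb1l windows. Over all windows of the rule this split occurred in 27 windows in 18 regions, and the next set of 3 that is not a whole group in 10. Of the 27 windows 18, and of the 11 windows 6, also had these mice apart by 2-fold in calls. The split did not occur among the 6715 chromosome X windows of the same depth. At 27 of the 327076 windows of the rule, few or none would be found in a set of that size. The count therefore says nothing particular about chromosome X.

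Arhgap10, which encodes a GTPase-activating protein, had an intronic window at chr8:77448001-77449000 with 96.8 to 98.5% in the 3 mice and 70.2 to 74.7% in the other 7. Scaled calls were 275 to 295 in the 3 and 987 to 1312 in the 7. The window 6157 bp upstream of Gtf3a, the gene of transcription factor IIIA, had 61.0 to 71.2% in the 3 mice and 34.8 to 46.8% in the 7, with 497 to 557 scaled calls against 940 to 1257. The overlapping Gtf3a window at chr5:146941501-146942500, which is the one plotted, had 52.8 to 67.7% and 28.0 to 39.0%, with at most 278 scaled calls in the 3 mice and 796 to 1077 in the 7. At the window 243593 bp from Oprm1, the mu opioid receptor gene, the 3 mice had 77.5 to 84.2% and 391 to 440 scaled calls, and the 7 had 53.4 to 58.6% and 2651 to 3875. In these windows calls and methylation did not overlap between the 3 mice and the 7.

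The 4930447K03Rik window on chromosome 13 had 79.4 to 84.9% in the 3 mice and 55.7 to 62.1% in the 7, with 148 to 250 scaled calls against 5579 to 8507. The Greb1l window had at most 272 scaled calls in the 3 mice and 2743 to 5149 in the 7. Near Mir2136 on chromosome 9 the calls were closer, at 211 to 260 and 276 to 378, while the levels were 87.5 to 91.0% and 61.7 to 71.5%. Near Rny3, a Y RNA gene, the 3 mice had 55.0 to 67.9% and the 7 had 17.3 to 32.4%, and 264 to 277 against 289 to 693 scaled calls. The SD of the Rny3 window was 15.7 points, and 5.37 points with a term for the 3 mice. In the upstream Bcl3 window the levels were 34.0 to 35.4% and 8.3 to 23.4%, and the scaled calls overlapped. Copies elsewhere in the genome were found for 92.3% of the stretches of the Rny3 window and 94.9% of the Greb1l window, but for 12.8% of the Gtf3a window and 25.6% of the Arhgap10 window.

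**Figure D5:**
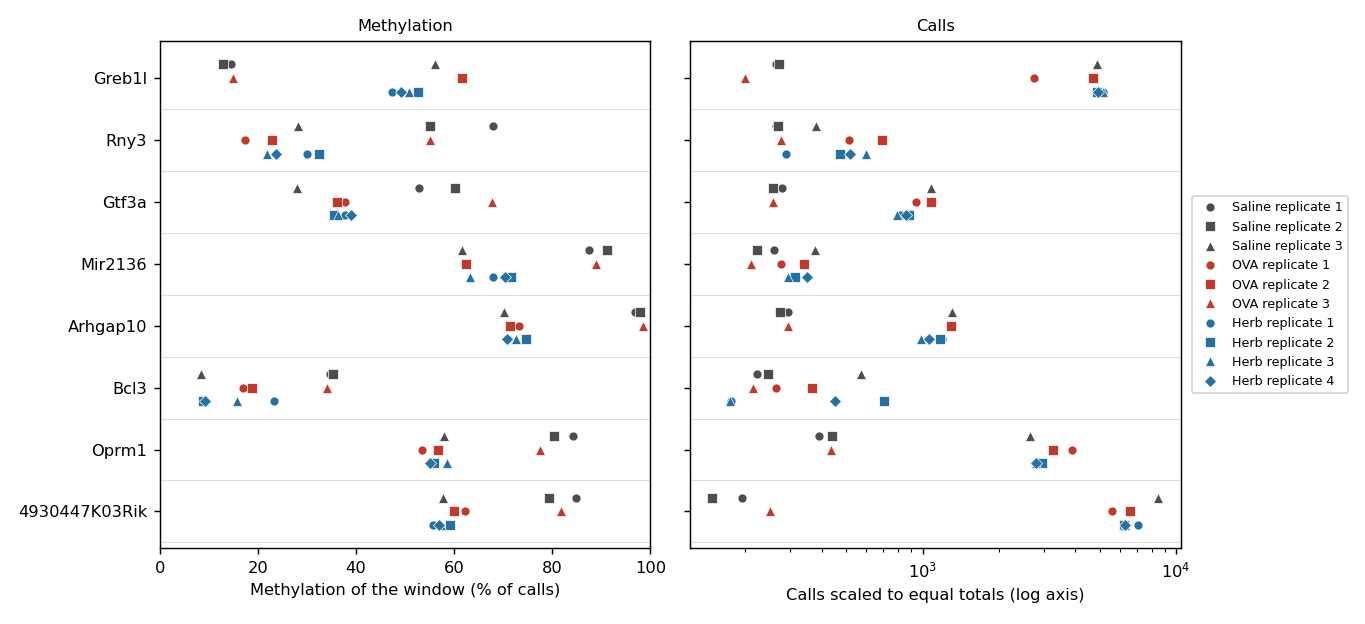
Methylation in percent (left) and calls scaled to equal library totals on a log axis (right) for the 8 regions in which Saline replicates 1 and 2 and OVA replicate 3 stood apart, 1 point per mouse. The 3 mice form their own cluster of levels in each row, and in 5 of the 8 rows they also have far fewer calls than the other 7, with close values at Rny3 and Mir2136 and overlap at Bcl3.

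Of the 192 windows, 13 in 9 regions had these 3 mice apart in methylation or by 2-fold in calls, which leaves 179 without them. With the 3 mice as an added term of the variance fit, 245 windows reached 10 points, of which 147 were among the 192. With the 3 mice left out, 467 windows reached it on 4 degrees of freedom, and 572 where the depth rule was also asked of the other 7 mice alone; 122 of the 192 were among them. In general, deviations in methylation and in calls moved together more often in the variable windows: r over the 10 mice was above 0.8 or below -0.8 in 33 windows (17.2%), 14 of them positive and 19 negative, compared with 2.25% of the windows with a mean of 20 to 80%. The points share the libraries and the part of depth in the spread was not tested.

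The variable windows were then compared between groups, by logistic regression of the calls over the whole table (likelihood ratio test, adjusted p under 0.01 and a pooled difference of 10 points or more). The comparisons share mice: the Saline, OVA and Herb mice each enter 2 of them. The OVA mice differed from the Saline mice in 58 of the 192 windows (30.2%), 39 higher and 19 lower, where 7.31% of all windows tested passed. The Herb mice differed from the OVA mice in 33 windows (17.2%), 15 higher and 18 lower, where 1.62% of all passed (the balance of higher and lower depended on single mice: 28 and 13 without OVA replicate 2, 17 and 30 without OVA replicate 1), and from the Saline mice in 75 windows (39.1%), 53 higher and 22 lower, where 8.01% of all passed. This test counts calls and has no term for the spread between mice, which is wide in these windows by choice. With limma, which uses that spread, none of the 192 windows passed for OVA against Saline (0% of all windows), none for Herb against OVA (0.0553% of all) and 1 for Herb against Saline (3.41% of all), at an adjusted p under 0.05 and 10 points. Unadjusted limma p-values under 0.05 were found in 18, 15 and 38 of the 192 windows for these comparisons, which is 9.38, 7.81 and 19.8%, and over all windows in 19.2, 9.66 and 24.2%. A low limma count is partly fixed by a rule that selects wide spread.

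The window that passed limma lies in an intron of Pde2a, a phosphodiesterase of cAMP and cGMP. Pde2a levels were 27.5, 24.1 and 31.3% in Saline mice, 28.0, 57.3 and 62.9% in OVA mice, and 53.6, 49.2, 47.5 and 47.4% in Herb mice. The mean rose from 27.6% ± 3.604 (SD, n = 3) in Saline mice to 49.4% ± 2.90 (SD, n = 4) in Herb mice without overlap (limma with Benjamini-Hochberg adjustment over all windows, adjusted p = 0.026), and its within-group spread lay in the OVA mice. S1pr3, a receptor of sphingosine 1-phosphate, had a window 29618 bp from its start site with 12.7, 14.9 and 31.2% in Saline mice, 34.0, 48.4 and 53.8% in OVA mice, and 27.1, 49.8, 35.4 and 47.0% in Herb mice. Every OVA mouse was above every Saline mouse, with a limma adjusted p of 0.14. Nadk2, the mitochondrial NAD kinase, had 19.8, 18.9 and 31.5% in Saline mice, 36.9, 62.5 and 46.0% in OVA mice, and 28.6, 29.8, 34.2 and 60.6% in Herb mice, again without overlap of OVA and Saline mice and with a limma adjusted p of 0.14.

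The largest pooled difference between Herb and OVA mice among the windows called by the likelihood ratio test was 35.4 points, in a window 70886 bp from the start site of 4930519L02Rik. Its levels were 18.9, 19.5 and 4.7% in Saline mice, 6.4, 9.0 and 9.3% in OVA mice, and 41.7, 29.8, 67.4 and 42.8% in Herb mice. All Herb mice were above all others, with limma adjusted p-values of 0.073 against OVA and 0.074 against Saline mice. Nmd3, an adaptor for export of the large ribosomal subunit, had 33.3, 27.8 and 26.1% in Saline mice, 13.5, 17.3 and 19.8% in OVA mice, and 43.8, 33.7, 68.7 and 44.6% in Herb mice in its promoter window. The 3 groups did not overlap there, with limma adjusted p-values of 0.12 for OVA against Saline, 0.15 for Herb against OVA and 0.17 for Herb against Saline mice. Scaled calls also did not overlap, with 296 to 589 in Herb mice and 123 to 228 in the other 6, and their part was not tested. Over all windows of the rule, the 4 Herb mice stood apart with at least 2-fold more calls in 84 windows, none of them variable. At a share of 0.0587% over all windows, a set of that size is mostly without a variable window, so this count says nothing particular.

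Other windows with large differences went the opposite way. A window of chromosome 3 whose nearest start site is that of Pex2, 284752 bp away, had 77.2, 66.7 and 47.4% in Saline mice, 60.6, 62.9 and 52.6% in OVA mice, and 25.9, 44.7, 24.6 and 40.3% in Herb mice. All Herb mice were below all others, and 82.1% of its stretches have another copy in the genome. The 2610005L07Rik window at chr8:20411001-20412000 had 60.2, 60.8 and 53.2% in Saline mice, 34.4, 26.7 and 61.0% in OVA mice, and 28.1, 36.9, 48.7 and 31.1% in Herb mice. Saline replicates 1 and 2 and OVA replicate 3 were its 3 highest mice, with 1302, 1395 and 983 scaled calls against 97 to 173 in the other 7. Another copy was found for 94.9% of its stretches. Its limma adjusted p for Herb against Saline was 0.054. A term for the 3 mice would leave Saline replicate 3 (53.2%) as the only Saline mouse, and the part of the calls was not tested.

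The 3 libraries that stood apart are 2 of the 3 Saline mice, 1 of the 3 OVA mice and none of the Herb mice. Their part cannot be told apart from the group in a comparison of Herb with Saline mice. A term for them in the logistic model leaves Saline replicate 3 alone against the Herb mice, so no count is given for that fit. With the term, 55 windows were called for OVA against Saline and 24 for Herb against OVA mice. The latter rest on OVA replicates 1 and 2 alone. All of these were among the calls without the term, and both fits asked 10 points of the same pooled difference. With an F test that scales for the spread of the calls, none of the 192 windows passed in any comparison, nor did any other window of the table (0% of all). Unadjusted F test p-values under 0.05 were found in 5, 10 and 11 of the 192 (2.60, 5.21 and 5.73%), and over all windows in 14.99, 7.17 and 20.4%. Of the calls by the likelihood ratio test, 16, 12 and 30 remained when any 1 mouse was left out.

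Lists of genes with a known role were looked up in the windows that overlap them or their promoters. Of 833 windows at 52 imprinted genes, 3 were variable (0.36%). This share was 0.0587% over all windows of the rule and 0.168% over those with a mean of 40 to 50%. The count is small, levels were not matched and no test was made. Airn is the noncoding RNA that silences neighbouring genes on the paternal chromosome, and its promoter lies within Igf2r. The Airn promoter window at chr17:12740501-12741500 had 37.3, 65.0 and 47.1% in Saline mice, 49.4, 46.9 and 55.8% in OVA mice, and 54.1, 41.2, 67.1 and 46.5% in Herb mice, with 606 to 968 calls. The levels centred near 50%, and Saline replicate 1 was the lowest and Herb replicate 3 the highest mouse. Gnas, the locus of the stimulatory G protein alpha subunit, had an intronic window with 43.4, 34.1 and 27.3% in Saline mice, 26.2, 33.9 and 19.4% in OVA mice, and 70.0, 46.9, 67.7 and 45.9% in Herb mice. All Herb mice were above all others there, with limma adjusted p-values of 0.17 against OVA and 0.11 against Saline mice. The Herb mice also had more scaled calls at Gnas, 306 to 623 against 136 to 261, and the part of the calls was not tested. The Igf2 promoter window, of a fetal growth factor gene, had an SD of 10.2 points and 107 calls in its shallowest mouse.

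None of 353 windows at 13 genes known to lie beside variably methylated IAP elements was variable by the rule, and their median SD was 1.85 points. At a share of 0.0587% over all windows, lists of this size are mostly without a variable window, so the counts of none here and below say nothing particular about these genes. None was variable among 435 windows of Hox genes, 377 of clustered protocadherins, 125 of olfactory receptors, 140 of the H2 genes of the major histocompatibility complex, 15 of defensins or 5 of antigen receptor genes. Krt84, a hair keratin, had both variable windows of the 196 at keratin, cornified envelope and related genes. Zfp59 had the only one of 3660 windows at zinc finger genes, with 3.0% in Saline replicate 2 and 20.9 to 45.8% in the other mice. Vmn2r29 had the only one of 48 at vomeronasal receptor genes. Windows of haematopoietic transcription factors (794), type 2 inflammation genes (132) and the DNA methylation machinery (306) held none.

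Lung cell type markers were covered by lists of pan-leukocyte, T cell, B cell, macrophage and neutrophil, alveolar, airway, endothelial, muscle, adipocyte, mesothelial and fibroblast genes. The only variable window among them was in the promoter of Hopx, a marker of alveolar type 1 cells, 1 of 116 windows of the alveolar list. Hopx levels were 19.5, 50 and 48.8% in Saline mice, 42.6, 63.8 and 56.8% in OVA mice, and 47.1, 25.4, 40.5 and 55.8% in Herb mice. Saline replicate 1 and Herb replicate 2 were low there, and the groups overlapped. The mean methylation over the promoter windows of the alveolar list was 22.3 to 23.5% in Saline, 24.3 to 25.6% in OVA and 22.9 to 25.5% in Herb mice. All OVA mice were above all Saline mice in it. Each such list mean weighs every promoter window alike. Listed genes without a covered promoter window, here Sftpb, Sftpa1, Sftpd and Lamp3, do not enter. Over the 10 mice the airway list had 18.8 to 22.6%, the adipocyte list 33.5 to 38.3% and the mesothelial list 22.1 to 24.6%. The airway mean rests on Foxj1 (6 windows) and Cyp2f2 (1 window), and the adipocyte mean on Pparg (8 windows) and Lep (2 windows). The fibroblast list had 11.04 to 11.4% in Saline, 11.4 to 13.4% in OVA and 11.7 to 12.5% in Herb mice. There all Herb mice were above all Saline mice, while OVA and Saline mice overlapped. For the pan-leukocyte list it was 46.6 to 47.6% in Saline mice, 34.7 to 39.3% in OVA mice and 35.9 to 39.0% in Herb mice, and for the macrophage and neutrophil list 58.3 to 60.9%, 52.1 to 53.9% and 50.4 to 52.7%. These lists were lower in all OVA and Herb mice than in all Saline mice. Spi1 gave 8 of the 20 windows of the macrophage and neutrophil list. The T cell list had 42.1 to 42.5%, 41.9 to 42.9% and 42.2 to 43.8% in the Saline, OVA and Herb mice. For the B cell list these were 21.8 to 23.0%, 22.6 to 24.3% and 23.7 to 24.3%, with all Herb mice above all Saline mice. The muscle list was higher in all OVA and Herb mice, at 36.0 to 36.3% in Saline, 39.4 to 41.0% in OVA and 39.5 to 41.7% in Herb mice. The endothelial list was higher as well, at 22.2 to 23.8%, 26.03 to 27.6% and 24.6 to 26.5%. The part of the cell mixture in the spread of the variable windows was not tested, and the table holds methylation and no expression.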

How the data were processed

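Lung DNA of 10 mice was profiled by SureSelect Methyl-seq. Per the labels, the authors used cutadapt 1.10 for trimming, Bismark 0.19.0 for alignment to mm10, and methylKit 1.0.0; the study's methods name other versions of these tools. The deposited values are counts: CpG calls, methylated calls and unmethylated calls of each mouse for each window of 1000 bp (starts every 500 bp), without normalization. Bismark reads a T at a reference C as an unmethylated call, and no removal of sequence variants or duplicates is described in the sources used here. Nothing beyond the title numbers says how replicates were prepared, so spread between them may be partly technical.

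Methylation was 100 times methylated calls over calls. Total calls were 306656737 to 410836272 per mouse. The pooled within-group SD had 7 degrees of freedom. The members of the rule, the gene lists and the tests were chosen with earlier results of these data known. Group tests were fitted over all windows with at least 20 calls in at least 2 mice of each group. They were a logistic likelihood ratio test, the same test with a replicate block and no scale factor, and an F test with a scale factor. Limma 3.58.1 in R 4.3.3 was also run, on M-values with a pseudocount of 1. These tests were tried first on simulated calls in which mice of a group differed by counting alone. Such calls cannot show how the tests behave in windows chosen for wide spread between mice. Genes and features came from 43783 RefSeq transcripts of GRCm38, in which no window lay beyond a chromosome end. Copies are 31-base stretches taken every 25 bases that occur elsewhere in the genome. Calls were scaled to the mean library total and logged with a pseudocount of 1.

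Windows were named by a rule: the 10 regions with the largest SD, the 5 with the most windows, the 5 genes with the most promoter windows, the 5 bins of 1 Mb with the highest share, up to 3 windows of each gene list, and per comparison the 3 windows with the smallest limma p and the 3 with the largest called difference. A gene is the one overlapped, or else the one with the nearest start site. Some windows just outside the threshold are not reported here. The windows in which 3 mice stand apart, the motifs and the windows at the threshold were named after their values were seen. Alternatives were lower and higher call minimums and SD thresholds, windows that do not overlap, counting variance subtracted, other promoter definitions, a replicate block and each mouse left out. Those on the 3 mice and on copied sequence were added after seeing the data.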

Additional observations from a re-analysis of the deposited data

Results flagged for a closer look

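In the 30 windows named by the rule, Dixon's ratio was used to find a Herb mouse far from the other 3. It flags about 1 in 20 groups by chance where groups are not chosen on their spread. These windows were chosen on a spread that includes the Herb mice, so that rate does not hold and the flags are a description. Dixon's ratio passed the critical value for 4 mice in 2 windows, which overlap at Krt84. In the Krt84 window at chr15:101527001-101528000, Herb replicate 3 had 27.8% methylation and the other Herb mice 52.8 to 56.7% (ratio 0.863). In the window at chr15:101527501-101528500, Herb replicate 3 had 32.9% and the others the same 52.8 to 56.7% (ratio 0.834). The windows share calls and count as 1 observation.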

How the results depend on the processing

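Depth and the threshold set how many windows were found. In place of 192, there were 1285 with 50 calls in every mouse and 30 with 200 calls. There were 1591 at an SD of 8 points and 43 at 12 points, 116 with counting variance subtracted and 84 among windows that do not overlap. With a replicate block 513 windows passed, 138 of them among the 192. With the 3 mice that stood apart left out, 572 passed. Depth was then asked of the other 7. Leaving out 1 mouse gave 245 to 302 windows, above 1.5 times the count without Herb replicate 1 (300) or 2 (302), and 21 windows passed whichever mouse was left out. The labels do not say whether mice with the same replicate number were handled together. Over windows with a mean of 20 to 80%, deviations of such mice correlated at -0.051 to 0.14 over 9 pairs, and 3 of 9 mice correlated best with their own number. In the variable windows the 9 pairs correlated at -0.245 to 0.101.

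The Herb share at windows chosen on the other mice was 4.13 to 9.02% with 1 mouse left out, with larger moves without Saline replicate 1 (4.13%), Saline replicate 3 (4.20%) or Herb replicate 1 (9.02%). The promoter share was 36.7% with 200 calls in every mouse and 13.9 to 18.4% with 1 mouse left out, lowest without Herb replicate 3. The abutting share was 0% with 200 calls and at edges that are multiples of 1000, and 1.16 to 3.73% with 1 mouse left out, with the low values without OVA replicate 1 (1.27%), OVA replicate 3 (1.18%) or Herb replicate 4 (1.16%). For OVA against Saline, Herb against OVA and Herb against Saline mice, the windows called numbered 0, 0 and 0 with the F test, 0, 0 and 1 with limma, 5, 10 and 11 at a difference of 20 points, and 21, 18 and 33 among windows that do not overlap. The likelihood ratio test with a replicate block gave 57, 25 and 64, and the term for the 3 mice lowered Herb against Saline from 75 to 36. No named window reversed its direction with limma or with 1 mouse left out. The other alternatives kept the pooled difference of the main test, so they could not show a reversal. Directions with the replicate block or the term for the 3 mice are also those of that difference. For Herb against OVA mice the balance of 15 higher and 18 lower windows turned to 14 and 11 with the replicate block, 14 and 10 with the term for the 3 mice, and 23 and 11 without OVA replicate 3, 23 and 13 without Herb replicate 1 or 17 and 14 without Herb replicate 2. The depth of most of these windows, 100 to 149 calls in the shallowest mouse, limits what can be said of a single window.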

Other observations

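On chromosome X, which the rule left out, 9 of 6715 windows with 100 calls in every mouse had a within-group SD of 10 points or more (0.134%), and the median SD was 2.99 points. The split of Saline replicates 1 and 2 and OVA replicate 3 from the other mice was also found outside the variable windows. In an intergenic window near Gm10440 at chr5:54335501-54336500, these 3 mice had 41.9 to 43.3% methylation with 1111 to 1212 scaled calls, and the other 7 had 62.1 to 65.3% with 8735 to 10871. In the Ccl27a promoter window at chr4:41774001-41775000, of a skin-homing chemokine gene, the 3 mice had 56.5 to 63.9% and 694 to 868 scaled calls, and the other 7 had 77.9 to 85.0% and 348 to 476. The calls of the 3 mice were thus fewer in the former window and more in the latter, and 23.1 and 59.0% of the stretches of these windows have another copy in the genome.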
